A study of Homo sapiens with 6 samples.

Results

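RT4v6, a line of the human bladder cancer cell line RT4 that had been grown serially in mice, was compared with its parent, RT4P. The comparison takes 2 of the 6 arrays of the series by their labels, 1 of live RT4v6 cells and 1 of live RT4P cells, so it holds 1 sample per side. RT4P cells came from a cell bank, and RT4v6 had been passaged in mice 6 times with the stated aim of enriching cancer stem cells. Both were untreated and were grown in MEM with 10% fetal bovine serum. Neither the mouse strain nor the site of growth, nor any step to remove mouse cells, is given in the sources used here. The series was set up to compare RNA levels during the blebbishield emergency program and between lines of unlike tumorigenicity. The other live arrays held RT4P-BSE2, RT4 cells taken through that program 2 times in a row, and PBSHMS, made by fusing RT4 blebbishields with mononuclear cells of human blood. The remaining arrays held RT4P blebbishields, the bodies left after apoptosis, made with 1 uM cisplatin and 20 mM lithium chloride for 24 h, and spheres, purified from cells treated alike and left to transform for another 4 h.

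RT4 is a papillary, luminal type of bladder cancer cell. The normal urothelium is layered: basal cells carry basal keratins, and the umbrella cells on the surface carry uroplakins and KRT20. Serial growth in a host is used to select cells that start tumours, and such cells are often sought by ALDH1 enzymes, CD44 and SOX family factors.

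Total RNA was read on Illumina HumanHT-12 version 4 arrays, which report a fluorescence intensity for each probe. Values below are normalized log2 intensities, called levels, and a difference is RT4v6 minus RT4P. The RT4P array detected 16733 probes at a mean raw signal of 382.2, and the RT4v6 array 16711 probes at 355.6. Over the 6 arrays, detected probes ranged from 14749 to 17593. With 1 array per side there is no replicate error and no test, so every difference describes these 2 arrays. A gene is called higher or lower at 2-fold or more. As a gauge of measurement spread, a second probe of the same gene gave a difference with a probe SD of 0.30, which is not replicate error. A fold is a bound, written "at least", for genes that only 1 of the 2 arrays detected. The arrays measured RNA of bulk cells, in which fewer cells of a type and less RNA per cell cannot be told apart.

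The urothelial label held on both arrays. All 13 urothelial markers were detected on each, with a summed raw signal of 31507 in RT4P and 34426 in RT4v6. Of 9 fibroblast markers none was detected on any array, and their summed signal ran from 756.9 to 914.6, with 896.4 in RT4P and 848.3 in RT4v6. The endothelial list had 1 of 6 markers detected in both lines, at summed signals of 719.6 in RT4P and 691.5 in RT4v6. The leukocyte list had 2 of 10 detected in both, ITGAM and HCLS1, at summed signals of 2292 and 2200 in the same order, with PTPRC not detected in either. No erythroid marker was detected. The probes are human, so RNA of mouse host cells was not measured as such, and its part in the results was not tested.

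More genes were lower than higher in RT4v6 at the 2-fold line. Among 14040 measured genes, 160 lay at least 2-fold above RT4P (1.14%) and 339 at least 2-fold below it (2.41%), so 3.55% lay past 2-fold in either direction. These counts were 48 and 116 without background correction, 74 and 193 with an offset of 50 in place of 16, 100 and 214 among genes detected on all 6 arrays, and 51 and 127 in the authors' processed values. At 4-fold the counts were 16 higher and 64 lower. The median difference over all genes was 0.02, with quartiles of -0.23 and 0.26. Among genes past 2-fold, 23 of the higher and 87 of the lower were bounds. Of 111 genes past 2-fold that had a second detected probe, 108 had that probe in the same direction, and in 57 it was itself past 2-fold.

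**Figure D1:**
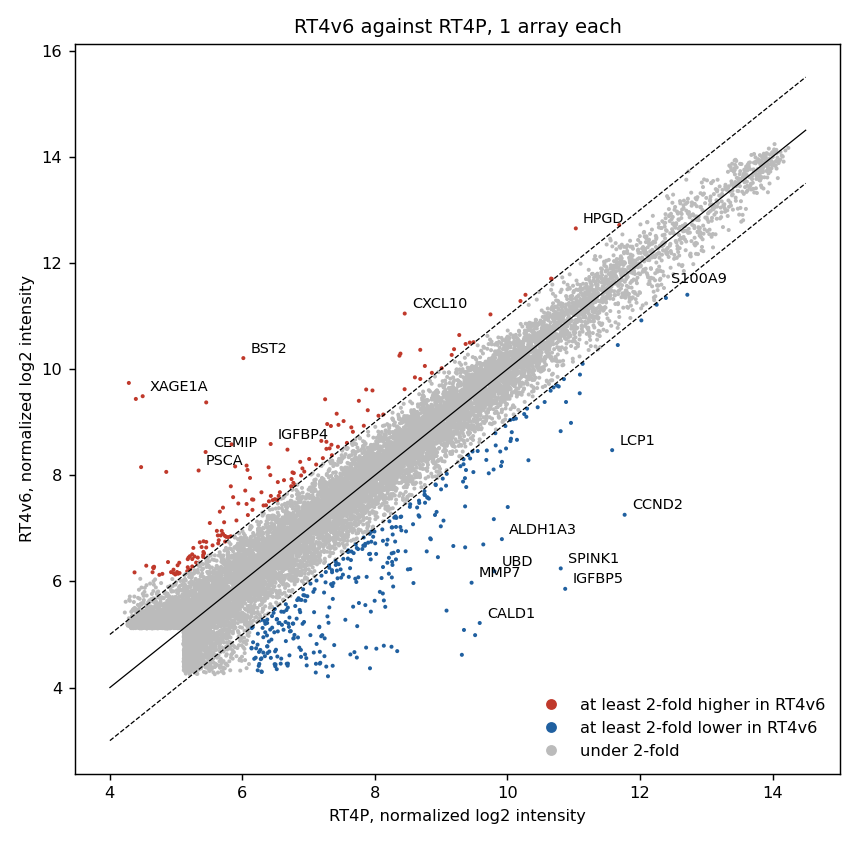
Level of each of 14040 genes in RT4P (x axis) and RT4v6 (y axis), as normalized log2 intensity, 1 array each. Red points are genes at least 2-fold higher in RT4v6 and blue points at least 2-fold lower; the solid line marks equal levels and the dashed lines 2-fold. Undetected sides are drawn at their own measured level. The lower genes reach farther into the bright range, with IGFBP5, SPINK1 and CCND2 far below the line.

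RT4v6 also stood apart from all other live lines at some of these genes. It was at least 2-fold above each of the other 3 live arrays at 43 genes (0.306%) and at least 2-fold below each at 157 genes (1.12%). Of the 160 genes higher than in RT4P, 36 were so placed, and of the 339 lower genes, 137. Over the genes measured for each, RT4P-BSE2 was 2-fold higher than RT4P at 1.31% and lower at 0.274%, and PBSHMS higher at 1.81% and lower at 2.03%. The count of genes 2-fold apart from each other live array gave 12 above and 6 below for RT4P, 99 and 0 for RT4P-BSE2, and 103 and 138 for PBSHMS. All these counts cover the 14040 genes detected in RT4P or RT4v6 and use measured levels also where a gene was undetected. Genes detected only in RT4P-BSE2 or PBSHMS were left out, so the counts of those lines are not on equal terms with those of RT4v6. Over all 6 arrays, RT4v6 had the highest level at 109 of the 160 higher genes and the lowest level at 209 of the 339 lower genes, ranks that include levels of undetected genes.

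The largest differences among the higher named genes were those of XAGE1 genes, cancer-testis antigen genes on chromosome X whose RNA is normally found mainly in testis. XAGE1A had a level of 9.49 in RT4v6, against 4.49 in RT4P, 4.63 in RT4P-BSE2, 4.72 in PBSHMS, 4.37 in blebbishields and 4.83 in spheres. RT4v6 was the only array of the 6 on which this probe was detected, and the difference from RT4P was at least 20.8-fold. In raw signal the probe read 853.2 in RT4v6 and 100.7 in RT4P. A probe of the near-identical copy XAGE1B read 9.74 in RT4v6 and 4.29 in RT4P, at least 24.7-fold higher, but other probes named for XAGE1B did not all go the same way. The copies were not told apart here, since no probe was compared with their transcripts. RefSeq promoter windows of the pair share an identical stretch of 300 bases. Of 40 cancer-testis genes listed, 7 were measured, 5 of them as bounds. These 2 were the ones past 2-fold, against 1.14% higher over all genes, and they may carry the same signal. The XAGE1A window is shown because this gene was detected in the passaged line alone and CG pairs, the sites of DNA methylation, are in capitals (GRCh38.p14, chrX:52495627-52495926, plus strand).
XAGE1A: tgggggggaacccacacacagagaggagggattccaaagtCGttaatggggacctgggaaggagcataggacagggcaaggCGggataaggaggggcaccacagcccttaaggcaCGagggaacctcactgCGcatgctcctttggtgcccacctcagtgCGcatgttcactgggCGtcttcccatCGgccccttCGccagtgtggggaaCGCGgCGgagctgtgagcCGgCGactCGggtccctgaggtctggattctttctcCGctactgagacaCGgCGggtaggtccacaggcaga
It held 17 CG pairs, while the median over 35116 RefSeq windows of the same length was 14, and 54.0% of windows held fewer than 17. Methylation was not measured.

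PSCA, CEMIP and IGFBP4, which encode surface or secreted proteins, were among the leading higher genes. PSCA, a membrane-anchored antigen of prostate and urothelium, stood at 8.09 in RT4v6, 5.34 in RT4P, 6.56 in RT4P-BSE2, 6.36 in PBSHMS, 5.82 in blebbishields and 7.26 in spheres. RT4v6 was the highest array, 6.73-fold above its parent. CEMIP, which binds and breaks down hyaluronan, was 8.44 in RT4v6 and 5.44 in RT4P, a 7.96-fold difference. It was not highest in RT4v6, since the spheres reached 8.74, and RT4P-BSE2 lay between at 7.07. IGFBP4, a binding protein that holds insulin-like growth factors, was 8.59 in RT4v6, 6.43 in RT4P and between 6.26 and 6.74 on the other 4 arrays. RT4v6 thus lay above a narrow range of all other arrays, 4.48-fold over RT4P.

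Other leading genes encode intracellular and adhesion proteins. MYRIP, which links Rab27 vesicles to myosin, was 8.58 in RT4v6 and 5.84 in RT4P, 6.71-fold higher, and from 5.14 to 6.39 elsewhere. FSCN1, an actin-bundling protein, was 10.29 in RT4v6 and 8.38 in RT4P, 3.75-fold higher. CD69, a C-type lectin best known from activated lymphocytes, was 10.25 in RT4v6 and 8.37 in RT4P, 3.69-fold higher. For all 3 of these genes RT4v6 was the highest of the 6 arrays. ALG1L1P, a pseudogene of the ALG1 mannosyltransferase family, was detected in RT4v6 at 8.06 and read 4.85 in RT4P, at least 7.73-fold higher. Signal from its protein-coding relatives was not separated from it here.

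Some of the higher genes were also high in RT4P-BSE2. ABCA6, a member of the lipid-transporting ABC family, was 9.43 in RT4v6, 9.24 in RT4P-BSE2, 7.25 in RT4P and 5.24 in PBSHMS. TESC, the calcium-binding protein tescalcin, was 8.10 in RT4v6, 7.96 in RT4P-BSE2, 6.08 in RT4P and 5.74 in PBSHMS. The gap between RT4v6 and RT4P-BSE2 was 0.19 at ABCA6 and 0.15 at TESC, while RT4v6 was 4.54-fold and 4.07-fold above RT4P. MMP1, the interstitial collagenase, was 8.18 in RT4v6, 7.41 in RT4P-BSE2, 6.06 in RT4P and 4.61 in PBSHMS, 4.34-fold higher in RT4v6 than in RT4P. ZDHHC11, a palmitoyltransferase, was 8.15 in RT4v6 and 6.40 in RT4P, 3.37-fold higher, and 7.06 in both other live lines.

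The largest difference among the lower genes was that of IGFBP5, another binding protein of insulin-like growth factors. Its level was 5.86 in RT4v6, 10.87 in RT4P, 11.70 in RT4P-BSE2, 13.62 in PBSHMS, 10.98 in blebbishields and 11.28 in spheres. RT4v6 was far below the other 5 arrays, 32.3-fold below RT4P. The rest of the insulin-like growth factor list stayed under 2-fold apart from IGFBP4 and IGFBP5. That made 1 higher and 1 lower of 11 measured, against 1.14% and 2.41% over all genes, with a list median of 0.14. IGFBP3 was 12.07 in RT4v6 and 11.31 in RT4P, a difference of 0.76.

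CCND2, the D-type cyclin that drives CDK4 and CDK6, was similar on 5 arrays and low on 1. It read 7.25 in RT4v6, 11.77 in RT4P, 11.45 in RT4P-BSE2, 12.01 in PBSHMS, 12.06 in blebbishields and 11.15 in spheres. RT4v6 was 22.8-fold below RT4P, and both probes of the gene were lower. CDKN2C, the p18 inhibitor of CDK4 and CDK6, was not detected in RT4v6 and read 7.11 in RT4P, at least 3.98-fold lower. No other gene of the 13 measured in the D-cyclin list passed 2-fold, so 2 were lower, against 2.41% over all genes. The list median was -0.22. CDKN1B, the p27 inhibitor, was 7.85 in RT4v6 and 8.61 in RT4P, a difference of -0.76. Proliferation genes lay close to the parent: of 39 G2/M genes and 39 G1/S genes none passed 2-fold, with medians of 0.10 and -0.01.

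**Figure D2:**
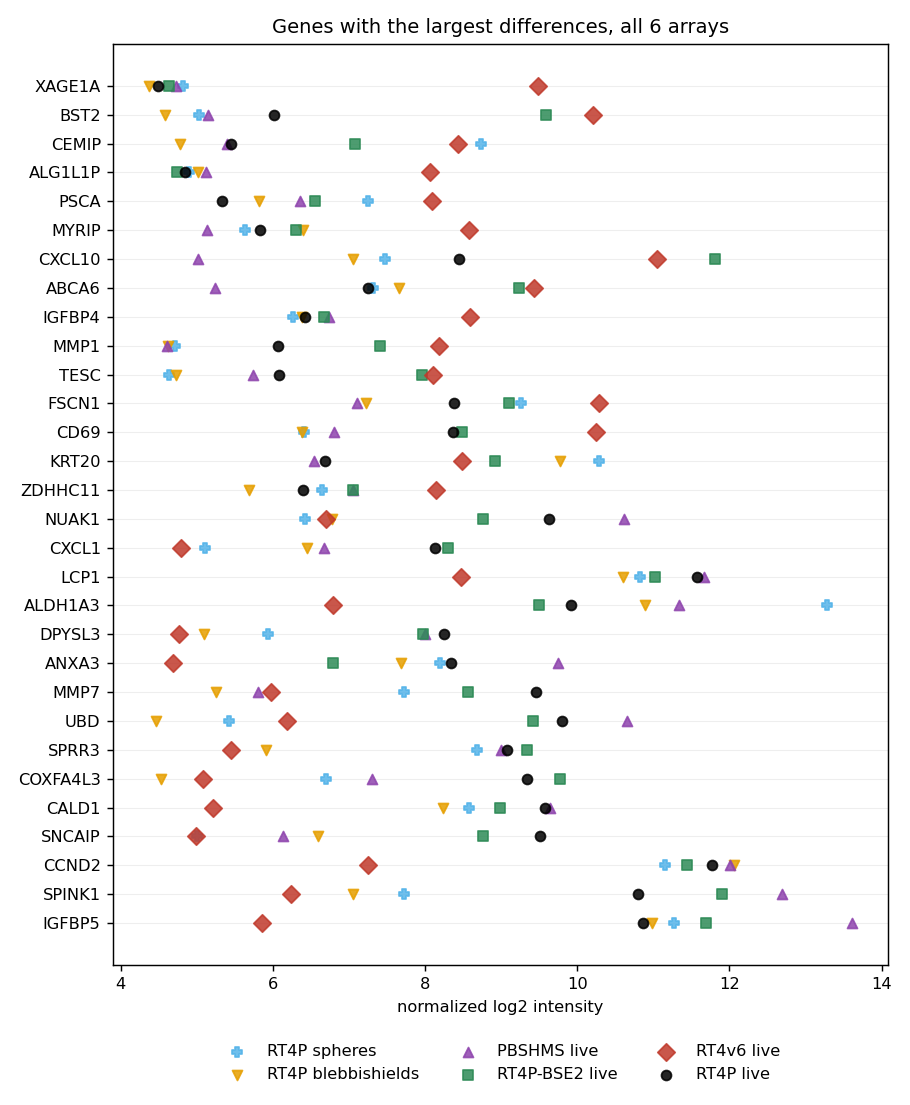
Levels (normalized log2 intensity, x axis) of the 15 genes per direction with the largest differences between RT4v6 and RT4P, 1 symbol per array. For XAGE1A, MYRIP and IGFBP4 the RT4v6 diamond lies alone on the right, and for IGFBP5, CCND2 and CALD1 alone on the left; for CEMIP, CXCL10 and MMP7 other arrays lie as far out.

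Actin-binding and contractile genes had the largest share of lower genes among the lists described. Contractile proteins such as caldesmon, transgelin and tropomyosin coat actin filaments, and many are targets of serum response factor. Of 15 measured, 6 were lower and none higher, against 2.41% lower over all genes, and the list median was -0.62 against 0.02. The contractile list had a median of -0.41 in RT4P-BSE2 and 0.61 in PBSHMS, each minus RT4P. CALD1, caldesmon, was 5.22 in RT4v6, 9.58 in RT4P, 8.99 in RT4P-BSE2, 9.64 in PBSHMS, 8.23 in blebbishields and 8.57 in spheres. RT4v6 was 20.6-fold below RT4P, and all 3 CALD1 probes were lower.

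TAGLN, transgelin, was not detected in RT4v6 and read 7.63 in RT4P, at least 5.71-fold lower. It was also low in RT4P-BSE2, at 4.95, and high in PBSHMS, at 10.69, so its low level does not set RT4v6 apart from every live line. TPM1, tropomyosin 1, was 9.38 in RT4v6, 10.88 in RT4P, 10.18 in RT4P-BSE2 and 11.49 in PBSHMS, 2.84-fold lower than in RT4P. ACTA2, smooth muscle actin, was 6.52 in RT4v6, 7.93 in RT4P, 7.80 in RT4P-BSE2 and 9.56 in PBSHMS, 2.65-fold lower. At CALD1, TPM1 and ACTA2 RT4v6 had the lowest level of the live arrays, and TAGLN was undetected in RT4P-BSE2 too. These genes are expressed by fibroblasts too, and the defining fibroblast markers were undetected on both arrays. The CArG box, the site bound by serum response factor, was found in 6 of 14 members with a promoter window, against 1.60% of all genes. It was found in 2 of 5 lower members with a window, FLNA and TGFB1I1. CALD1, TAGLN, TPM1 and ACTA2 were not among the members in which it was found, but not every one of them had a window to search. A site outside the window, or one with other letters, would be missed.

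**Figure D3:**
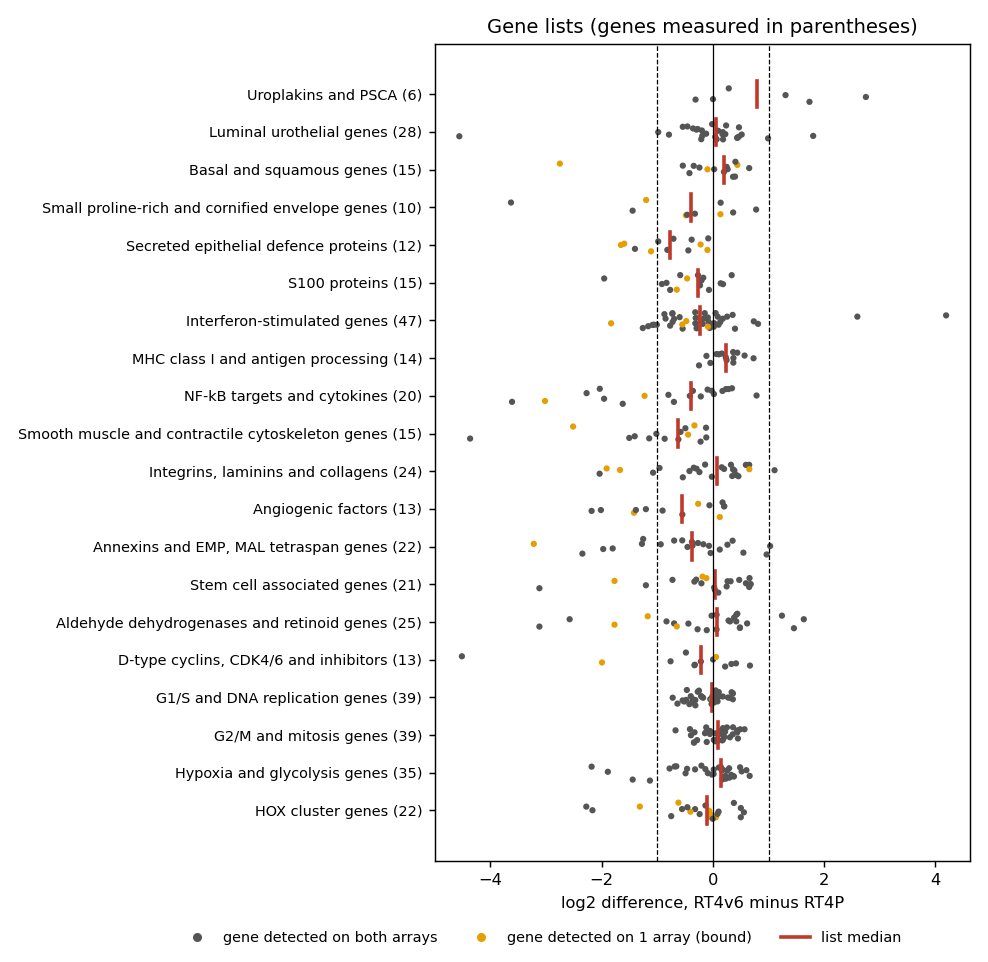
Differences (RT4v6 minus RT4P, log2) of the measured members of 20 gene lists; each point is a gene, orange points are bounds, red bars are list medians and dashed lines mark 2-fold. The contractile and NF-kB lists extend to the left, PSCA and the uroplakins to the right, and the G1/S and G2/M lists lie within the lines.

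LCP1, DPYSL3, NUAK1 and SNCAIP were among the leading lower genes. LCP1, the actin bundler L-plastin, was 8.47 in RT4v6, 11.58 in RT4P, 11.02 in RT4P-BSE2, 11.67 in PBSHMS, 10.61 in blebbishields and 10.82 in spheres. It was lowest in RT4v6, 8.62-fold below RT4P, so that FSCN1 and LCP1, both actin bundlers, lay on opposite sides. DPYSL3, a cytoskeletal regulator of growth cones, was not detected in RT4v6 and read 8.25 in RT4P, at least 8.78-fold lower. NUAK1, an AMPK-related kinase, was 6.70 in RT4v6, 9.63 in RT4P and 10.61 in PBSHMS, 7.67-fold lower than in RT4P. SNCAIP, which encodes synphilin-1, was not detected in RT4v6 and read 9.51 in RT4P, at least 21.1-fold lower, while the spheres, at 5.01, were as low as RT4v6.

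Of 22 annexin, EMP, MAL and tetraspan genes, whose products shape membranes, 6 were lower and 1 higher, against 2.41% and 1.14% over all genes, with a median of -0.37. ANXA3, a calcium-dependent phospholipid-binding protein, was not detected in RT4v6 and read 8.34 in RT4P, 6.80 in RT4P-BSE2 and 9.75 in PBSHMS, at least 9.32-fold lower than in RT4P. MALL was 5.77 in RT4v6 and 8.12 in RT4P, 5.09-fold lower. MAL, which sorts proteins to the apical membrane, was 8.99 in RT4v6 and 10.96 in RT4P, 3.92-fold lower, with PBSHMS at 9.17. RT4v6 was the lowest of the live arrays at these 3 genes, though PBSHMS was close at MAL.

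Several chemokine and cytokine genes of the NF-kB list were lower in RT4v6. NF-kB is the transcription factor family that switches on chemokines and cytokines after signals such as TNF and interleukin 1. Of 20 genes measured, 7 were lower and none higher, against 2.41% lower over all genes, with a list median of -0.39. The chemokine CXCL10, counted with the interferon-stimulated genes and not in this list, was 6.05-fold higher. The NF-kB list had a median of 0.16 in RT4P-BSE2 and -0.45 in PBSHMS, each minus RT4P. UBD, the ubiquitin-like protein FAT10, was 6.19 in RT4v6, 9.80 in RT4P, 9.41 in RT4P-BSE2, 10.65 in PBSHMS, 4.46 in blebbishields and 5.42 in spheres. RT4v6 was 12.2-fold below RT4P and lowest of the live arrays, though both stressed samples were lower still. CXCL1, a neutrophil chemokine, was not detected in RT4v6 and read 8.13 in RT4P, 8.30 in RT4P-BSE2 and 6.67 in PBSHMS, at least 8.10-fold lower than in RT4P.

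CXCL8, the neutrophil chemokine interleukin 8, was 8.28 in RT4v6, 10.32 in RT4P, 10.20 in RT4P-BSE2 and 8.80 in PBSHMS, 4.09-fold lower than in RT4P. IL32, a secreted inflammatory cytokine, was 5.80 in RT4v6, 8.07 in RT4P, 7.76 in RT4P-BSE2 and 7.58 in PBSHMS, 4.83-fold lower. The pathway's own subunits and inhibitors differed less: NFKB1 differed by -0.22, NFKB2 by -0.02, RELB by -0.36, NFKBIA by -0.10 and TNFAIP3 by 0.28, and none passed 2-fold. These 5 genes are named for their place in the pathway, with their values known. The list's promoter windows held an NF-kB motif at 11 of 18 genes and at 5 of the 7 lower ones, against 13.3% of all genes. The windows of the 2 leading genes are shown with the motif in capitals (GRCh38.p14, CXCL1 at chr4:73869143-73869442 on the plus strand and UBD at chr6:29559683-29559982 on the minus strand, each printed 5′ to 3′ along the gene).
CXCL1: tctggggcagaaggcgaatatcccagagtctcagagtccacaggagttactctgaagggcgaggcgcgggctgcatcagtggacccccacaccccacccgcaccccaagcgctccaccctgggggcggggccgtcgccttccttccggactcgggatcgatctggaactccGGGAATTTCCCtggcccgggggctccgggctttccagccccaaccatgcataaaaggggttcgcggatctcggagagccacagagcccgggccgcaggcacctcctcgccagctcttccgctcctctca
UBD: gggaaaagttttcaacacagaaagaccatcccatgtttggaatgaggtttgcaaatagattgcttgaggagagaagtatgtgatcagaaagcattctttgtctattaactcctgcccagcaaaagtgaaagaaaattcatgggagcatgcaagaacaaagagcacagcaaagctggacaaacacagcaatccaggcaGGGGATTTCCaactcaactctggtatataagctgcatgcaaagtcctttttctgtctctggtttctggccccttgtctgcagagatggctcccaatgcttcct
CXCL1 held 2 overlapping matches, counted over both strands, and UBD held 1.

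Interferon-stimulated genes split, with 2 well above the parent and most others slightly below it. Interferons act through transcription factors such as STAT2 and IRF9, which bind the interferon-stimulated response element in the promoters of antiviral genes. Of 47 measured, 2 were higher and 6 lower, against 1.14% and 2.41% over all genes. The median was -0.22, and 31 lay below 0, of which 5 were bounds undetected in RT4v6. BST2, the membrane protein tetherin that holds budding viruses at the cell surface, was 10.21 in RT4v6, 6.01 in RT4P, 9.59 in RT4P-BSE2, 5.15 in PBSHMS, 4.59 in blebbishields and 5.03 in spheres. RT4v6 was highest, 18.3-fold above RT4P, with RT4P-BSE2 next. CXCL10, a chemokine that draws CXCR3-bearing T cells, was 11.05 in RT4v6, 8.45 in RT4P, 11.82 in RT4P-BSE2, 5.02 in PBSHMS, 7.06 in blebbishields and 7.47 in spheres. It was 6.05-fold higher in RT4v6 than in RT4P and higher still in RT4P-BSE2.

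The lower members included effectors of the antiviral response. IFI44L was not detected in RT4v6 and read 6.95 in RT4P and 10.52 in RT4P-BSE2, at least 3.56-fold lower than in RT4P. MX1, a GTPase that blocks viral replication, was 8.56 in RT4v6, 9.82 in RT4P, 12.19 in RT4P-BSE2 and 7.35 in PBSHMS, 2.40-fold lower than in RT4P. RT4v6 thus lay below RT4P and far below RT4P-BSE2 at these genes, while at BST2 and CXCL10 it lay near RT4P-BSE2. Against the same RT4P array, the list median was 1.98 in RT4P-BSE2 and -0.85 in PBSHMS. Of the pathway's transcription factors, STAT2 was close to the parent, with a difference of 0.01, and IRF9 was lower, with a difference of -1.06; both are named with their values known.

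**Figure D4:**
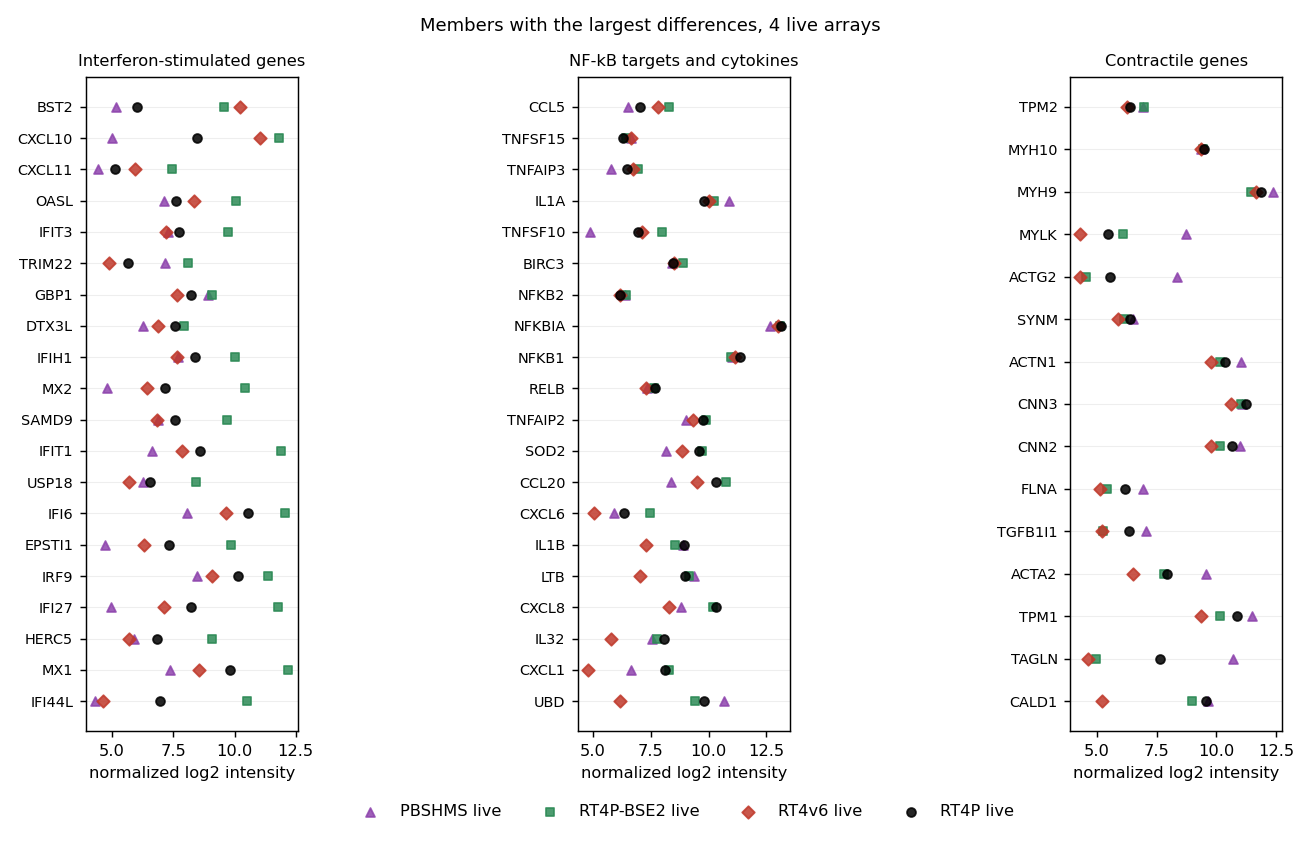
Levels (normalized log2 intensity, x axis) on the 4 live arrays for the members of 3 lists with the largest differences between RT4v6 and RT4P. RT4v6 lies beside RT4P-BSE2 at BST2 and CXCL10 but to its left at MX1 and IFI44L, and it is lowest of the 4 at UBD, IL32, CALD1 and TPM1.

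The promoters of BST2 and CXCL10 do not differ from that of IFI44L in having the element, which is why the 3 are shown. Searched as GAAANNGAAA on both strands, it occurred in the windows of 24 of 36 interferon-stimulated genes with a window, in 2 of 2 higher and 5 of 6 lower genes, and in 4.38% of all 27305 genes with a window. Matches are in capitals, and each sequence runs 5′ to 3′ along its gene (GRCh38.p14, BST2 at chr19:17405581-17405880, minus strand, CXCL10 at chr4:76023448-76023747, minus strand, IFI44L at chr1:78620198-78620497, plus strand).
BST2: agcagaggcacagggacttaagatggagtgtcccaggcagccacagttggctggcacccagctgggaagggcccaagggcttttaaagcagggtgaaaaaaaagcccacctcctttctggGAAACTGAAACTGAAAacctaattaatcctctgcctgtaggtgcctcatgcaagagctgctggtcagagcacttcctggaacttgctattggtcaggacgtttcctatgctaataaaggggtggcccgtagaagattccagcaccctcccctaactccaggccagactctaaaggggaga
CXCL10: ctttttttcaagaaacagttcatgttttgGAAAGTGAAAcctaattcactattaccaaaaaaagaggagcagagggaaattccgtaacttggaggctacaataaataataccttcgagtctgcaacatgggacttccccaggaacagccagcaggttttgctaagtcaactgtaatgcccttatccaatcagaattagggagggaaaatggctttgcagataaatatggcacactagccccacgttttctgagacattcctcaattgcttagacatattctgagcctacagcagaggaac
IFI44L: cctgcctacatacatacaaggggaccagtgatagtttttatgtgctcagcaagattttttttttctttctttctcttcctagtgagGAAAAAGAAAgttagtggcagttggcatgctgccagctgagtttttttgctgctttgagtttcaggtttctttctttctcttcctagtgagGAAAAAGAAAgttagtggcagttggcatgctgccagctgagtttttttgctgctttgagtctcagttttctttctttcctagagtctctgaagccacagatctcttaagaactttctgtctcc
BST2 held 2 overlapping matches, CXCL10 1 and IFI44L 2. The CXCL10 window also matches the NF-kB motif, which is left in lower case there. A match is a description of the letters and not a measured binding site.

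No antigen presentation gene measured passed 2-fold, but the class I and class II medians lay on opposite sides of 0. Of 14 MHC class I and antigen-processing genes 11 lay above 0, with a median of 0.24. TAP2, a subunit of the peptide transporter, was 6.76 in RT4v6 and 6.03 in RT4P, a difference of 0.73. MHC class II genes had a median of -0.49 over 6 measured, of which 5 lay below 0. CD74, the class II invariant chain, was 9.57 in RT4v6, 10.23 in RT4P, 10.16 in RT4P-BSE2 and 5.36 in PBSHMS. RT4v6 was 1.58-fold below RT4P at CD74, and PBSHMS 29.3-fold below it.

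Among genes of umbrella cells, PSCA, UPK2, UPK1A and KRT20 were higher, and the other uroplakins were under 2-fold. Uroplakins form the plaques of the apical surface. Of 6 uroplakin and PSCA genes, 3 were higher and none lower, against 1.14% higher over all genes, with a list median of 0.80. UPK2 was 9.16 in RT4v6, 7.42 in RT4P, 9.08 in RT4P-BSE2, 9.31 in PBSHMS, 7.44 in blebbishields and 7.49 in spheres. RT4v6 was 3.33-fold above RT4P, at the level of the other derived live lines. UPK1A was likewise lowest in RT4P among the live arrays, at 10.06 in RT4v6, 8.75 in RT4P, 10.31 in RT4P-BSE2 and 10.42 in PBSHMS, 2.47-fold higher than in RT4P. The 3 derived live lines were therefore alike at both genes, and RT4P was low.

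The other uroplakins were near the parent, with differences of 0.00 for UPK1B, 0.29 for UPK3B and -0.31 for UPK3A. KRT20, the keratin of umbrella cells, was 8.48 in RT4v6, 6.68 in RT4P, 8.92 in RT4P-BSE2, 6.54 in PBSHMS, 9.78 in blebbishields and 10.28 in spheres. RT4v6 was 3.49-fold above RT4P, but the spheres were highest. SPINK1, a secreted trypsin inhibitor, was 6.24 in RT4v6, 10.80 in RT4P, 11.91 in RT4P-BSE2, 12.69 in PBSHMS, 7.05 in blebbishields and 7.72 in spheres. It was 23.6-fold lower in RT4v6 than in RT4P, and the lowest of the 6 arrays. KRT20, higher, and SPINK1, lower, were the only genes past 2-fold among 28 luminal genes, against 1.14% and 2.41% over all genes. The luminal list had a median of 0.06. ADIRF, another luminal gene, lay just under the line at 13.72 in RT4v6 and 12.73 in RT4P, a difference of 0.99.

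Squamous and barrier genes were lower where they differed. KRT13, a keratin of intermediate and squamous layers, was not detected in RT4v6 and read 7.87 in RT4P and 7.31 in RT4P-BSE2, at least 6.73-fold lower than in RT4P. PBSHMS, at 4.86, was close to RT4v6, at 4.75. Of 15 basal and squamous genes KRT13 was the only one past 2-fold, against 2.41% lower over all genes, and the list median was 0.20. Among 10 small proline-rich and cornified envelope genes 3 were lower and none higher, against 2.41% lower over all genes, with a median of -0.39 that became 0.0055 without a detection filter. SPRR3, a cross-linked envelope protein, was 5.45 in RT4v6, 9.08 in RT4P, 9.33 in RT4P-BSE2, 8.99 in PBSHMS, 5.91 in blebbishields and 8.69 in spheres. RT4v6 was the lowest array, 12.4-fold below RT4P.

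Of 12 secreted defence proteins 4 were lower and none higher, against 2.41% lower over all genes, with a median of -0.76. All 12 lay below 0, but 5 were bounds undetected in RT4v6, which could not lie above 0. For this list the median was 0.23 in RT4P-BSE2 and -0.81 in PBSHMS, each minus RT4P. PIGR, which carries IgA across the epithelium, was not detected in RT4v6 and read 6.77 in RT4P, at least 3.15-fold lower. LCN2, an iron-binding antibacterial protein, was 8.64 in RT4v6, 10.04 in RT4P, 10.37 in RT4P-BSE2 and 6.65 in PBSHMS, 2.64-fold lower than in RT4P. S100A8, a calprotectin subunit, was 6.31 in RT4v6 and 8.26 in RT4P, 3.88-fold lower, while its partner S100A9 was 11.53 against 12.36, a difference of -0.83. S100A8 was the only member past 2-fold of 15 S100 genes, against 2.41% lower over all genes. COXFA4L3, also known as C15orf48, a relative of a mitochondrial respiratory subunit, was not detected in RT4v6 and read 9.34 in RT4P and 9.78 in RT4P-BSE2, at least 18.7-fold lower than in RT4P.

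Epithelial junction genes did not differ at 2-fold: none of 26 did, and their median was 0.04. Of 10 measured mesenchymal and EMT genes, 1 was higher and 3 lower, against 1.14% and 2.41% over all genes, with a median of -0.29. TGFBI, an extracellular matrix protein induced by TGF-beta, was not detected in RT4v6 and read 7.36 in RT4P, at least 4.75-fold lower. The other 2 lower members were TAGLN and ACTA2, given above.

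The label says that the passages were meant to enrich cancer stem cells, and 21 of 32 stem cell associated genes were measured. None was higher at 2-fold, against 1.14% over all genes, and 3 were lower, against 2.41%, with a median of 0.04. With so small a share over all genes, none higher among 21 does not set the list apart. ALDH1A3, an enzyme that makes retinoic acid and a source of ALDH activity in many carcinomas, was 6.80 in RT4v6, 9.92 in RT4P, 9.50 in RT4P-BSE2, 11.34 in PBSHMS, 10.89 in blebbishields and 13.28 in spheres. RT4v6 was the lowest of the 6 arrays, 8.69-fold below RT4P, and both probes were lower. ALDH1A2, a second retinaldehyde dehydrogenase, was not detected in RT4v6 and read 6.88 in RT4P, at least 3.41-fold lower.

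SOX9, a transcription factor of progenitor cells, was 5.46 in RT4v6, 6.66 in RT4P, 6.70 in RT4P-BSE2 and 5.44 in PBSHMS, 2.30-fold lower than in RT4P. CD44, the hyaluronan receptor of basal cells, was 11.02 in RT4v6, a difference of 0.02 from RT4P. SOX2 differed by 0.68, PODXL by 0.66, ITGA6 by 0.65, KLF4 by 0.59, KIT by 0.47, EZH2 by 0.32, CD24 by 0.25 and MYC by 0.10. BMI1 differed by -0.30 and BMP4 by -0.73. Between the 2 arrays, LGR5 was detected in RT4v6 and not in RT4P, at 5.76 against 5.11, and POU5F1 and SALL4 were detected in RT4P and not in RT4v6, all under 2-fold as bounds.

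The wider aldehyde dehydrogenase and retinoid list went both ways, with a median of 0.07. Of 25 measured, 3 were higher and 4 lower, against 1.14% and 2.41% over all genes. ALDH3B2, which oxidizes lipid aldehydes, was 9.60 in RT4v6, 7.96 in RT4P, 8.67 in RT4P-BSE2 and 5.12 in PBSHMS, 3.10-fold higher than in RT4P. RARRES1, named for its response to retinoid, was 5.16 in RT4v6, 7.73 in RT4P, 9.23 in RT4P-BSE2 and 6.98 in PBSHMS, 5.96-fold lower. ALDH3B2 was thus highest, and RARRES1 lowest, in RT4v6 among the live arrays.

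Secreted proteases and matrix genes also went both ways. Of 20 metalloproteinase, TIMP and plasminogen genes 3 were higher and 2 lower, against 1.14% and 2.41% over all genes, with a median of 0.12. MMP7, matrilysin, was 5.97 in RT4v6, 9.46 in RT4P, 8.56 in RT4P-BSE2, 5.80 in PBSHMS, 5.25 in blebbishields and 7.72 in spheres. It was 11.2-fold lower in RT4v6 than in RT4P, at about the level of PBSHMS. ADAMTS1, a protease of proteoglycans, was 5.97 in RT4v6 and 8.58 in RT4P, 6.12-fold lower. Of 24 integrin, laminin and collagen genes 1 was higher and 4 lower, against the same shares, with a median of 0.07. ITGA2, the collagen-binding integrin alpha 2, was 10.27 in RT4v6 and from 8.59 to 9.18 on the other 5 arrays, 2.16-fold above RT4P. COL5A2, a fibrillar collagen chain, was 6.06 in RT4v6 and 8.10 in RT4P, 4.10-fold lower.

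Angiogenic factors had 5 of 13 members lower and none higher, against 2.41% lower over all genes, with a median of -0.55 that became 0.014 without a detection filter. ANGPTL4, a lipase inhibitor induced by low oxygen, was 6.07 in RT4v6, 8.25 in RT4P, 9.79 in RT4P-BSE2 and 9.05 in PBSHMS, 4.53-fold lower than in RT4P. ANG, angiogenin, was 5.15 in RT4v6 and 7.16 in RT4P, 4.04-fold lower. VEGFC, a growth factor of lymphatic vessels, was not detected in RT4v6 and read 6.53 in RT4P, at least 2.67-fold lower, and VEGFA differed by 0.17. The hypoxia and glycolysis list had 4 of 35 genes lower and none higher, against 2.41% lower over all genes. Beside ANGPTL4 these were BHLHE40, ALDOC and PFKFB3, with differences of -1.89, -1.44 and -1.13. The 2 probes of PFKFB3 did not go the same way. The list median was 0.14, and 21 of the 35 genes lay above 0.

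Growth factor receptor genes stayed under 2-fold. None of 9 FGFR3, TACC3 and FGF genes and none of 8 EGF receptor and ligand genes passed it, with medians of -0.06 and 0.22. FGFR3, the receptor often altered in papillary bladder cancer and fused to TACC3 in RT4, was 11.77 in RT4v6 and 11.34 in RT4P, a difference of 0.44. TACC3 was 10.80 in RT4v6 and 10.22 in RT4P, a difference of 0.58. Among 25 Ras, Raf and ERK feedback genes 1 was higher and 2 lower, against 1.14% and 2.41% over all genes, with a median of -0.15. ETV4, an ETS factor downstream of ERK, was 7.31 in RT4v6, 5.66 in RT4P and from 5.16 to 6.37 on the other 4 arrays, 3.15-fold above RT4P.

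Immediate early genes, which respond within minutes to growth signals and stress, had 3 of 23 lower and none higher, against 2.41% lower over all genes, with a median of -0.19. JUN, a subunit of AP-1, was 6.35 in RT4v6, 8.19 in RT4P, 6.87 in RT4P-BSE2 and 9.19 in PBSHMS, 3.57-fold lower than in RT4P. JUND was 9.90 in RT4v6, 11.09 in RT4P and at least 10.80 on the other 4 arrays, 2.29-fold lower. CCN1, a matrix protein that serum response factor and YAP are known to induce, was 6.88 in RT4v6, 8.27 in RT4P, 7.73 in RT4P-BSE2 and 9.67 in PBSHMS, 2.61-fold lower. At all 3 genes RT4v6 was the lowest live array.

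Survival and damage-response genes differed little. Of 27 BCL2 family and caspase genes BCL2 alone passed 2-fold, against 2.41% lower over all genes. BCL2 was 7.22 in RT4v6 and 8.31 in RT4P, 2.12-fold lower, with RT4P-BSE2 at 7.76 and PBSHMS at 6.95. None of 5 inhibitor of apoptosis genes, 28 DNA adduct repair genes, 12 platinum transport and efflux genes and 18 MYC network genes passed 2-fold. Their medians were 0.20, 0.00, 0.35 and 0.05 in the same order. Of 29 p53 targets 1 was higher and 1 lower, against 1.14% and 2.41% over all genes. MDM2, the p53 ubiquitin ligase, was higher, at 6.65 in RT4v6 and 5.38 in RT4P, 2.40-fold. GADD45B was lower, at 5.43 in RT4v6 and 6.62 in RT4P, 2.29-fold. These levels are among the dimmer ones measured, where the offset of 16 added to each signal understates folds.

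HOX genes, which record position along the body axis, had 3 of 22 lower and none higher, against 2.41% lower over all genes, with a median of -0.10. All 3 belong to the HOXB cluster. HOXB2 was 5.28 in RT4v6, 7.55 in RT4P, 6.97 in RT4P-BSE2 and 6.47 in PBSHMS, 4.85-fold lower than in RT4P. HOXB5 was 5.59 in RT4v6, 7.76 in RT4P, 7.27 in RT4P-BSE2 and 7.53 in PBSHMS, 4.49-fold lower. HOXB8 was not detected in RT4v6 and read 6.43 in RT4P, at least 2.49-fold lower. RT4v6 was the lowest of the 6 arrays at HOXB2 and HOXB5, whereas HOXB4 differed by 0.56 and HOXB7 by -0.55; these last 2 were named after their values were seen.

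Small differences shared by neighbouring genes ran along whole chromosome stretches. For this description 9110 genes detected on all 4 live arrays were put in RefSeq order and split into 228 windows of 34 to 45 neighbours. The median difference of a window ranged from -0.55 to 0.45 in RT4v6, with an SD over windows of 0.17. In 11 windows it was at least 0.30 and in 8 at most -0.30. Set against the same RT4P array, RT4P-BSE2 had no window past either line, a range of -0.14 to 0.15 and an SD of 0.054, and PBSHMS had 2 and 3 such windows and an SD of 0.10. Windows named below were picked for these values, so they are described and not tested.

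Chromosome 17 held 5 of the higher windows and had a median of 0.24 over 575 genes. The window from BLTP2 to PSMD11 had a median of 0.45, with 36 of 41 genes above 0. The window from RPL19 to STAT5B had a median of 0.38, with 35 of 41 above 0, and it contains IGFBP4 and KRT20. HOXB2 and HOXB5 lie in a window of the same chromosome, from HEXIM1 to LRRC59, whose median was 0.31, so both were lower among mostly higher neighbours. Chromosome 3 held 5 higher windows, among them HACD2 to CDV3 at 0.42 and TOPBP1 to PFN2 at 0.43. At its other end the window from TRNT1 to NUP210, which contains BHLHE40, had a median of -0.31. The windows that follow it, from HDAC11 to PRICKLE2, also had medians below 0, between -0.29 and -0.15. A window of chromosome 11 from BUD13 to UBASH3B, which contains UPK2, had a median of 0.38.

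The lowest window was the first of chromosome 22, which ends at PI4KA, at -0.55 with 33 of 39 genes below 0. That window stood at 0.00 in RT4P-BSE2 and 0.67 in PBSHMS. Next came TICAM1 to NDUFA7 on chromosome 19 at -0.40 with 35 of 40 below 0, and the last window of chromosome 1, TSNAX to PGBD2, at -0.37 with 32 of 39 below 0. Most genes in these windows differed by less than 2-fold, and what the neighbours share beyond position was not tested. Lower values were not confined to these windows: among the chromosomes used, the lowest whole-chromosome medians were -0.19 on chromosome 14, -0.18 on chromosome 19 and -0.17 on chromosome 5.

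**Figure D5:**
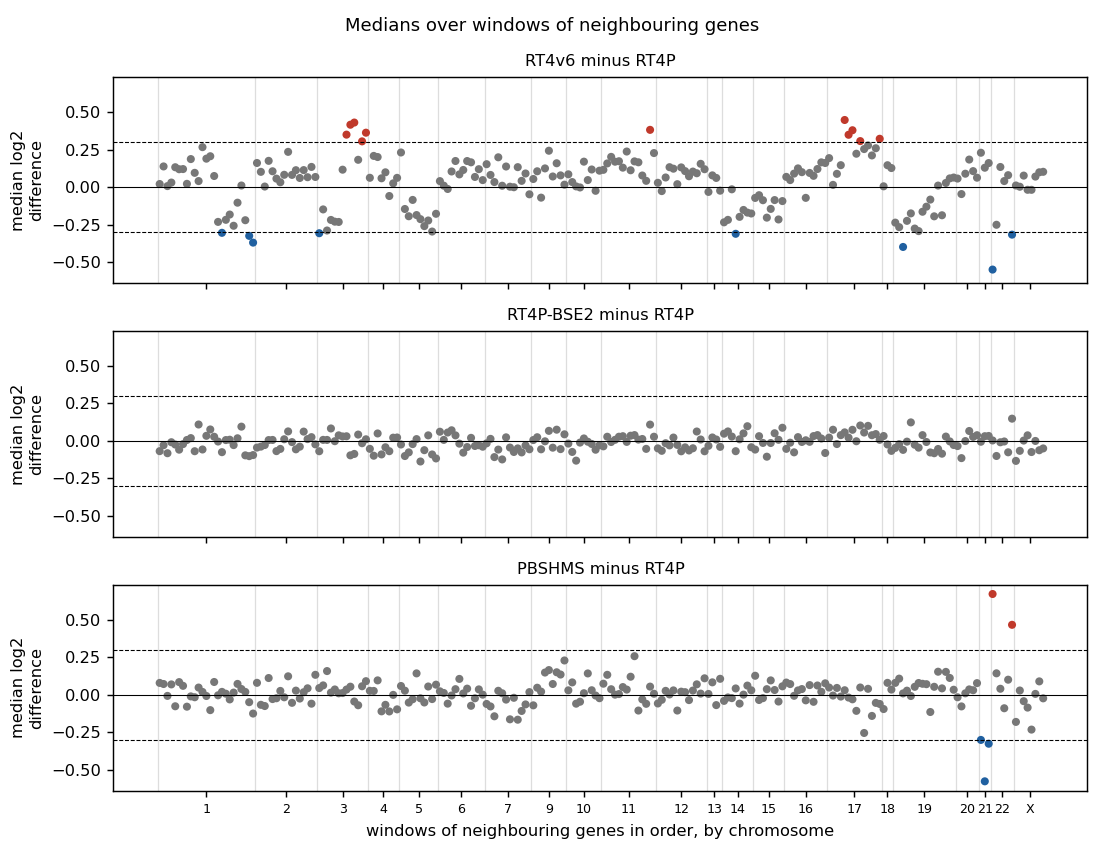
Median difference (log2, y axis) of 228 windows of neighbouring genes in chromosome order (x axis) for each derived live line minus the same RT4P array; red and blue points lie at or past 0.30 and -0.30, and chromosomes 8 and Y are left out. In RT4v6 the higher windows lie on chromosomes 3, 11 and 17 and the lowest on 22, while RT4P-BSE2 stays between the lines.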

How the data were processed

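Total RNA of 6 samples was hybridised to 1-colour Illumina HumanHT-12 arrays, 1 per sample and group, per the labels. The authors deposited non-normalized signal intensity and a detection p-value per probe, per the file headers, and processed intensity values with equal medians of 104.4, as the values show. The submitters' processing notes name GenomeStudio. Neither its version nor a genome build is given in the sources used here.

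The non-normalized intensity was corrected with nec of limma 3.58.1 in R 4.3.3 (normexp, negative controls inferred from the detection p-value, offset of 16), quantile normalized over 6 arrays and put on the log2 scale. Genes entered if either array had a detection p-value under 0.01, and the brightest detected probe, by its mean over 6 arrays, stood for the gene. An undetected side was raised to the lowest detected value of its array. The resulting bound enters list medians, at 0 if it had the opposite sign. The probe SD is that of the gap between the differences of 2 probes of a gene, divided by the square root of 2. The steps were tested on simulated arrays.

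Of 34694 names in the table, 17590 were current RefSeq symbols (GRCh38.p14), 3461 matched through an older symbol, 13616 were kept as given, and 27 that a spreadsheet had turned into dates were not named. Promoter windows, from RefSeq, run from 250 bases before to 50 after a start.

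Named genes are the 15 with the largest differences per direction, with a level of 8 or more on either array and all detected probes in 1 direction, plus up to 4 members per list, and every member of the FGFR3, uroplakin and stem cell lists. Members and lists were chosen with earlier results of these data known. Alternatives were other between-array normalizations (equal medians, none, the pair alone), no background correction, an offset of 50, detection on both arrays, on all 6, at a detection p-value under 0.05 or without a filter, the mean over probes, and the authors' processed intensity. Window medians were added after the data were seen. Chromosomes 8 and Y were not used for windows. Python 3.11.15 was used for the remaining steps. Some genes that meet the naming rule are not reported here.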

Additional observations from a re-analysis of the deposited data

How the results depend on the processing

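Of 99 named genes past 2-fold, 99 kept their direction in all 1018 values under the alternatives, and 19 of 19 windows past 0.30 did so in 209. Their sizes moved more: of 238 named genes' differences, 109 moved by more than the probe SD without background correction, 107 in the authors' processed values and 75 with an offset of 50. Counts depended on the background correction and the detection filter. Without background correction 48 genes were higher and 116 lower, with an offset of 50 it was 74 and 193, with detection on all 6 arrays 100 and 214 of 10450 genes, and with the authors' processed values 51 and 127. Under the other alternatives the counts ran from 137 to 220 higher and from 252 to 439 lower, each within 1.5 times the reported count, and the share of higher genes among those past 2-fold ran from 27.7% to 35.2% over all alternatives against 32.1%. Of 9 list medians at least 0.30 from 0, those of the angiogenic list (0.014) and the cornified envelope list (0.0055) changed sign without a detection filter, and the cause was not tested. Counts of RT4v6 among the live arrays were made at the reported setting alone. No paired analysis was possible because each group had 1 array. The number of arrays, 1 per side, limits the precision, and dim genes have understated folds or bounds.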

Other observations

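Further gene groups gave values that the comparisons above do not use. Their counts stand against 1.14% higher and 2.41% lower over all genes, and some are near those shares. Of 55 cytosolic ribosomal protein genes 2 were lower in RT4v6 and none higher, with a median of -0.12. RPL14 was 8.69 in RT4v6, 10.05 in RT4P, 9.99 in RT4P-BSE2 and 9.87 in PBSHMS, 2.58-fold lower than in RT4P. RPS23 was 9.15 in RT4v6 and 10.25 in RT4P, 2.14-fold lower. Oxidative phosphorylation genes had none of 55 past 2-fold and a median of -0.05. Of 17 cytochrome P450 and AhR axis genes 2 were lower, with a median of -0.20, and both belong to the CYP3A family of drug-oxidizing enzymes. CYP3A7 was not detected in RT4v6 and read 6.97 in RT4P, at least 3.62-fold lower, and CYP3A5 was not detected in RT4v6 and read 6.37 in RT4P, at least 2.39-fold lower. These are close paralogs, whose probes may share signal. Of 27 NRF2 targets 2 were lower, with a median of 0.10. HMOX1, heme oxygenase 1, was 6.96 in RT4v6 and 8.40 in RT4P, 2.71-fold lower, and AKR1B10, an aldo-keto reductase, was 5.20 against 6.76, 2.94-fold lower. Of 32 cholesterol and fatty acid synthesis genes ELOVL6, a fatty acid elongase, was higher, at 9.62 in RT4v6 and 8.45 in RT4P, 2.26-fold. HES4 and JAG2 were the genes past 2-fold among 15 of the Notch pathway, 3.15-fold and 2.36-fold lower, at 7.25 against 8.91 and 7.02 against 8.26. In the heat shock list HSPB8, a small heat shock protein, was not detected in RT4v6 and read 6.69 in RT4P and 9.31 in PBSHMS, at least 2.97-fold lower than in RT4P, and it alone of 21 genes passed 2-fold.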
